A study of Mus musculus with 39 samples.

Results

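5-hydroxymethylcytosine (5hmC) was described in naive wild-type (WT) mouse embryonic stem cells (mESC) as the difference between 2 readings of the same genome. RRBS, reduced representation bisulfite sequencing of MspI fragments, reads 5-methylcytosine (5mC) and 5hmC together, here called total methylation. oxRRBS first oxidises 5hmC so that it is no longer read, and leaves 5mC. The members are all tiles of 200 bp with both values in naive WT cells, 246422 of the 377684 tiles in the deposited table, and 5hmC is total minus 5mC in percentage points of the CpG cytosines read.

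All mESC groups were derived from morulas of embryonic day 2.5, out of matings between 129s-Trp53tm2Tyj/J mice heterozygous for p53, in 2i medium on irradiated embryonic fibroblast (MEF) feeders. Cells given 1 μM retinoic acid (RA) for 4 days were p53-null (p53-/-; 4 RRBS and 4 oxRRBS libraries) or WT (5 RRBS and 4 oxRRBS). Naive cells, which had no RA, were p53-null (3 RRBS and 3 oxRRBS) or WT (5 RRBS and 5 oxRRBS), and the naive WT cells are described here. The series holds 39 libraries in 10 groups, and its liver libraries were not analysed here. The labels give feeder removal for the differentiation experiments only and do not say how many lines stand behind the libraries. No value here measures feeder DNA, and since no expression was measured the cell type could not be checked against markers. The labels say that oxidation was checked with added control DNA, whose values were not used here.

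TET enzymes make 5hmC by oxidising 5mC, so the mark can form only where methylation is present. It is known as an intermediate of demethylation and also as a stable mark, and is well known in mESC, which express TET1 and TET2. Growth in 2i medium, which holds mESC in a naive state, is known to lower DNA methylation. CpG islands, the CpG-dense stretches at many promoters, are mostly free of methylation.

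Each group has 1 pooled value per tile, so no value carries a spread between libraries and no difference between assays, regions or groups could be tested. Read depth is unknown. Unless stated otherwise, an SD is over the 20 chromosomes with at least 1000 tiles (1 to 19 and X), counting in each class only those with at least 20 tiles of it. Chromosomes share the same libraries, so this SD describes the pooled genome and not the error between libraries. The tile table's headings name no cell state; its first set of columns is taken as naive and its second, by elimination, as RA-treated. At the 47820 tiles that hold 1 CpG of the single-CpG table and values in both sets, the CpG column headed WT_NT lay on average 5.996 points from the first set's WT total and 17.3 points from the second set's. The column headed WT_RA lay 19.8 points from the first and 7.36 points from the second.

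In naive WT cells 5hmC made up less of the total than 5mC did. Mean total methylation was 30.1%, mean 5mC was 24.2%, and mean 5hmC was 5.96 points (SD 0.322 over 20 chromosomes), which is 19.8% of the total. The chromosome means ran from 4.94 to 6.34 points. The median tile was lower, at 3.402 points. In 8358 tiles, 3.39% of all, total methylation and 5mC were both listed at 0.

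Single tiles were far less precise than the mean. The SD over tiles was 14.1 points, and the values from the 5th to the 95th percentile ran from -15.2 to 30.8 points. Of all tiles, 78228 (31.7%) had 10 points of 5hmC or more, 19944 (8.09%) had -10 points or less, and 68574 (27.8%) lay below 0, a level that no true amount of 5hmC can take. The oxRRBS reading varied more over tiles of like level. Among tiles at 40% to 60% total methylation in RA-treated cells, total methylation had an SD of 14.3 points over tiles and 5mC one of 17.2 points. In those tiles 0.117% were listed at 0 for total methylation and 2.41% for 5mC. Over all tiles, 5mC was listed at 0 beside a total of at least 20% in 3142 tiles, and the reverse was seen in 126.

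5hmC was higher where more methylation was present, but as a share of total methylation it was lower there. Tiles were classed by their mean total methylation in RA-treated p53-null and WT cells, values that do not enter naive 5hmC, and 214665 tiles had these. In the 40183 tiles under 5%, 5hmC averaged 0.102 points (SD 0.0495 over chromosomes) beside a naive total of 0.605%. In the 16441 tiles at 5% to 20% it averaged 1.66 points (SD 0.192), and in the 31088 tiles at 20% to 40% it averaged 4.66 points (SD 0.379). These classes hold the unmethylated and weakly methylated sequence.

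Levels were highest in tiles above 40% in RA-treated cells. In the 65575 tiles at 40% to 60%, 5hmC was 7.61 points (SD 0.506), with total methylation at 36.4% and 5mC at 28.7%. In the 56507 tiles at 60% to 80% it was 9.13 points (SD 0.432), with 52.1% and 43.0%. In the 4871 tiles above 80% it was 9.70 points (SD 1.53), with 65.7% and 56.0%, which is within the chromosome spread of the class below.

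The share of total methylation that was 5hmC ran the other way. It was 31.6% in tiles at 5% to 20%, 26.0% at 20% to 40%, 20.9% at 40% to 60%, 17.5% at 60% to 80% and 14.8% above 80%. In the class under 5% the share was 16.8%, but it varied from -5.33% to 26.2% between chromosomes and is poorly set. With classes taken instead from total methylation of naive p53-null cells, 5hmC was 3.49, 7.17, 8.65, 8.59 and 6.93 points from the class at 5% to 20% up to the class above 80%. The shares were then 34.6%, 29.5%, 22.0%, 16.2% and 10.5%. Over all tiles the falling share thus held under both class definitions. The level of 5hmC was highest above 80% by the first and at 40% to 60% by the second. By the first, tiles with a CpG in the single-CpG table had shares of 48.8%, 43.1%, 34.5%, 29.1% and 27.7% in the same order of classes. Tiles with none had 18.4% at both 5% to 20% and 20% to 40%, then 15.7%, 12.7% and 9.32%. No fall was thus seen at the first step there. Tiles with such a CpG made up 52.6% of the class at 5% to 20% and 36.8% at 20% to 40%.

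**Figure D1:**
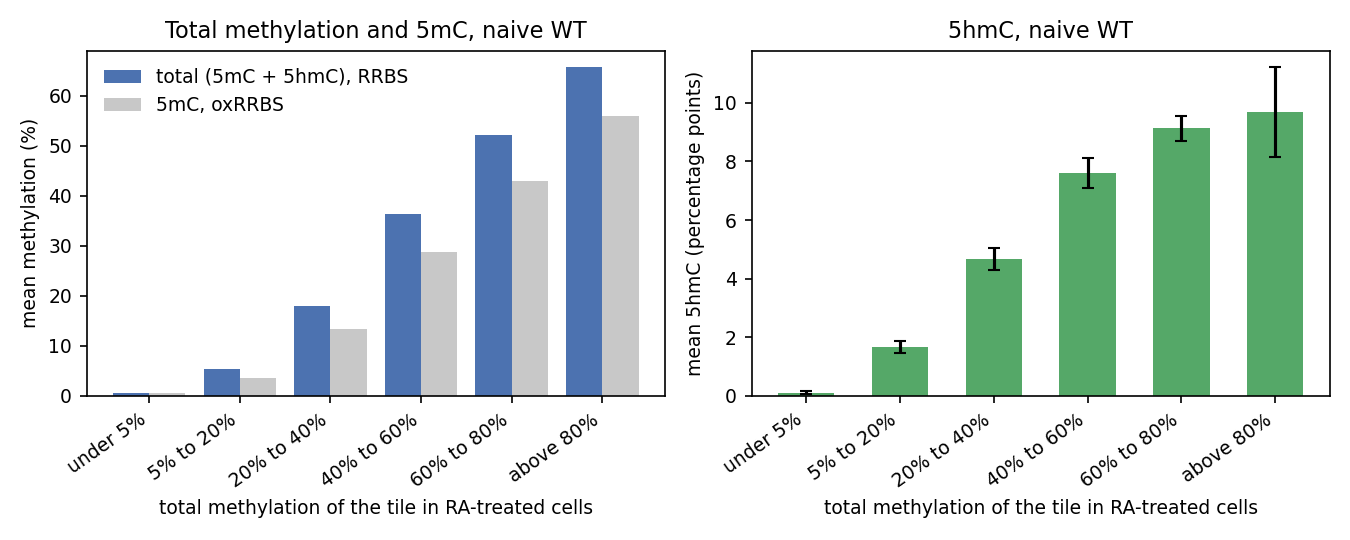
Left, mean total methylation (%, RRBS) and mean 5mC (%, oxRRBS) of naive WT cells in 6 classes of tiles by total methylation in RA-treated cells. Right, mean 5hmC in percentage points for the same classes, with bars for the SD over 20 chromosomes; it is 0.102 points under 5% and 9.13 points at 60% to 80%.

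Classes made from the same values that give 5hmC cannot be used, since an error in a reading then moves the class and the difference together. By their own total methylation, tiles under 5% averaged -0.106 points and tiles above 80% averaged 20.7 points. By their own 5mC, tiles at 5% to 20% averaged 12.3 points and tiles above 80% averaged -22.2 points. No result rests on these values.

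Once neighbouring tiles were averaged, nearly all blocks had 5hmC above 0. The average was taken over consecutive tiles among the 122082 tiles at 40% to 80% in RA-treated cells, where 5hmC averaged 8.31 points. Of single tiles in this range, 25.6% were at or below 0. With 4 tiles averaged the share was 13.8%, with 16 it was 2.27%, and with 64, a median span of 1072 kb, it was 0.0527%, which is 1 of 1897 blocks. The SD was 15.1 points for single tiles, 5.64 points for blocks of 8 and 2.10 points for blocks of 64. Single-tile values with no likeness between neighbours would have given 5.33 and 1.89 points, which is not far below the SDs seen.

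**Figure D2:**
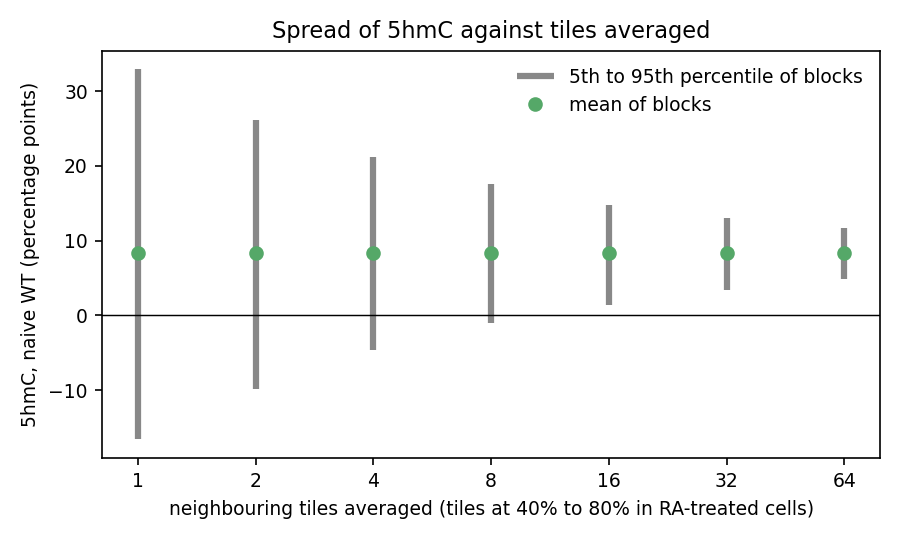
5hmC of naive WT cells (percentage points) in blocks of 1 to 64 consecutive tiles at 40% to 80% total methylation in RA-treated cells. Points are means of blocks and vertical lines run from the 5th to the 95th percentile; the line lies above 0 from blocks of 16 tiles on.

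Neighbouring tiles were much less alike in 5hmC than in total methylation. Over the 108230 pairs of adjoining tiles, Pearson's r was 0.225 for 5hmC, 0.826 for total methylation and 0.709 for 5mC. Between tile starts 1000 bp apart, over 15750 pairs, r was 0.0913 for 5hmC and 0.680 for total methylation, and at 10000 bp it was 0.00805 and 0.143. Adjoining tiles share libraries and can share reads, and tiles are not independent, so these are descriptions. As a difference, 5hmC carries the error of both readings, which lowers its r. These values thus do not measure how alike the true 5hmC of neighbouring tiles is. Among adjoining tiles whose first member is at 40% to 80%, r was 0.170 over 48318 pairs, and at 400 bp it was 0.0400.

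Tiles with 9 or more listed CpGs, called CpG-dense here, were almost unmethylated and held almost no 5hmC. Density was first measured as the number of CpGs in the tile that the single-CpG table lists. In the 6453 tiles with 9 or more listed CpGs, total methylation was 0.381%, 5mC was 0.299% and 5hmC was 0.0819 points (SD 0.219 over chromosomes). Tiles with 5 to 8 listed CpGs had 0.546 points, those with 3 to 4 had 3.27, those with 2 had 6.89 and those with 1 had 9.50 points (SD 0.403). The difference between tiles with 1 and with 9 or more was 9.42 points, and total methylation differed in the same order, at 29.7% and 0.381%. The 143550 tiles with no listed CpG did not follow the order, with 5.49 points at a total of 37.5%. The order by listed CpGs was reversed among tiles at 40% to 80% in RA-treated cells, which the listing fixes in part, as described below. 5hmC there was 12.4 points with 1 listed CpG, 13.2 with 2, 13.3 with 3 to 4 and 14.99 points with 5 to 8 (194 tiles), or 30.0%, 35.4%, 39.1% and 48.2% of total methylation.

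The listing of a CpG is itself not independent of 5hmC or of methylation level, which limits that measure. A CpG was listed in 89.5% of tiles under 5% in RA-treated cells and in 31.2% of those at 40% to 60%. CpG-rich tiles that are methylated may thus be missed by the count. How far this sets the low level of the CpG-dense tiles was not tested. The table holds 330387 CpGs, each with a second column per group whose suffix, Hx, is not defined in the sources used here. By elimination it belongs to oxRRBS, and at tiles with 1 listed CpG it lay on average 6.56 points from naive WT 5mC and 15.5 points from 5hmC. At none of the 330387 CpGs was Hx above the total, in any of the 4 mESC groups (0 in each), whereas 27.8% of tiles had 5mC above total. Among tiles at 40% to 80% in RA-treated cells, the 38079 with a listed CpG had 12.6 points of 5hmC (SD 0.287) and the 84003 with none had 6.38 points (SD 0.336). Of the tiles with a listed CpG 1.73% had -10 points or less, and of those without 13.3%. Total methylation was 40.1% and 45.3%, so the gap in 5hmC was the opposite of that in level. A tile with more listed CpGs holds more CpGs where Hx is not above total. This fixes in part the rise of 5hmC with listed CpGs among tiles at 40% to 80%. Of those tiles 12.9% lay below 0 with 1 listed CpG, 5.52% with 2, 2.74% with 3 to 4 and 0% with 5 to 8. The size of the listing's part in the differences between density classes was not tested. Below, the listing serves to place the unmethylated CpG-dense tiles, and some results are also given apart for tiles with and without a listed CpG.

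A second measure of density, which does not use the listing, was the number of other tiles with values within 1 kb, since MspI sites lie close together in CpG-rich sequence. Among tiles at 40% to 80% in RA-treated cells, the 28892 tiles with no such neighbour had 8.61 points of 5hmC (SD 0.557), which was 19.05% of total methylation. The 62385 tiles with 1 neighbour had 8.27 points (19.01%), the 17705 with 2 had 8.20 points (19.3%), the 11573 with 3 to 4 had 8.05 points (18.8%) and the 1459 with 5 to 7 had 8.09 points (19.7%). The steps between these classes were smaller than the SD over chromosomes. The 68 tiles with 8 to 10 neighbours had a mean of 2.86 points (7.25%) but a median of 6.18 points. They are too few for an SD over chromosomes. Of them 8.82% had a listed CpG, against 33.2% of the tiles with 5 to 7 neighbours. Over tiles of all levels 5hmC was lower with more neighbours, at 7.51 points with none and 1.76 points with 5 to 7, beside total methylation of 38.9% and 7.83%.

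Away from CpG-dense tiles, 5hmC was near the genome mean from 2 to 5 kb on, and its share of total methylation was lower at long distance. Distances were taken to the nearest tile with 9 or more listed CpGs. Tiles adjoining one had 0.0493 points of 5hmC, and tiles from there to 1 kb had 0.694 points. At 1 to 2 kb it was 3.398 points (SD 1.13), at 2 to 5 kb 5.96 points (SD 0.828), at 5 to 20 kb 6.57 points (SD 0.688), at 20 to 100 kb 6.73 points (SD 0.350) and over 100 kb 6.37 points (SD 0.409). Total methylation was 0.475% in adjoining tiles, 13.2% at 1 to 2 kb, 23.2% at 2 to 5 kb and 35.3% over 100 kb.

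The share differed about as much among tiles of like level, 25.5% at 2 to 5 kb and 17.4% over 100 kb, as over all tiles, 25.7% and 18.04%. Among tiles at 40% to 80% in RA-treated cells, the 1912 tiles at 2 to 5 kb had 10.01 points of 5hmC (SD 1.28), against 7.89 points (SD 0.436) in the 74998 tiles over 100 kb away. The share was 22.8% at 5 to 20 kb and 21.4% at 20 to 100 kb. Nearer than 2 kb few tiles reach this level: the 537 tiles at 1 to 2 kb had a share of 24.6%, and the 142 tiles between 200 bp and 1 kb one of 27.1%. The share was the higher at 2 to 5 kb on 19 of 20 chromosomes. This count uses all 20, whereas the SD at 2 to 5 kb is over the 19 with at least 20 tiles there. The exception, chromosome 18, had 17.6% over 40 tiles at 2 to 5 kb and 18.3% over 100 kb.

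Naive total methylation also differed between these tiles, at 39.2% at 2 to 5 kb and 45.3% over 100 kb, and tiles with a listed CpG made up 36.0% and 28.4%. Within tiles that have no listed CpG the shares were 20.6% and 12.9%, and within tiles that have one 35.1% and 30.2%. With tiles matched on total methylation of naive p53-null cells, at 60% to 80%, naive WT total was 51.7% at 2 to 5 kb and 53.2% over 100 kb. 5hmC in those tiles was 11.6 points (SD 3.23) and 8.05 points (SD 0.660). At 40% to 60% it was 9.86 points (SD 2.19) and 8.14 points (SD 0.622), and at 20% to 40% 6.52 points (SD 1.47) and 6.84 points (SD 0.344). In points, the difference was thus not seen in the weakly methylated class and lay within the spread over chromosomes at 40% to 60%. The share was higher at 2 to 5 kb in each class. It was 22.3% and 15.1% at 60% to 80%, and 26.4% and 20.5% at 40% to 60%. At 20% to 40% it was 29.5% (SD 5.85) and 27.5% (SD 1.63), within the spread over chromosomes.

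**Figure D3:**
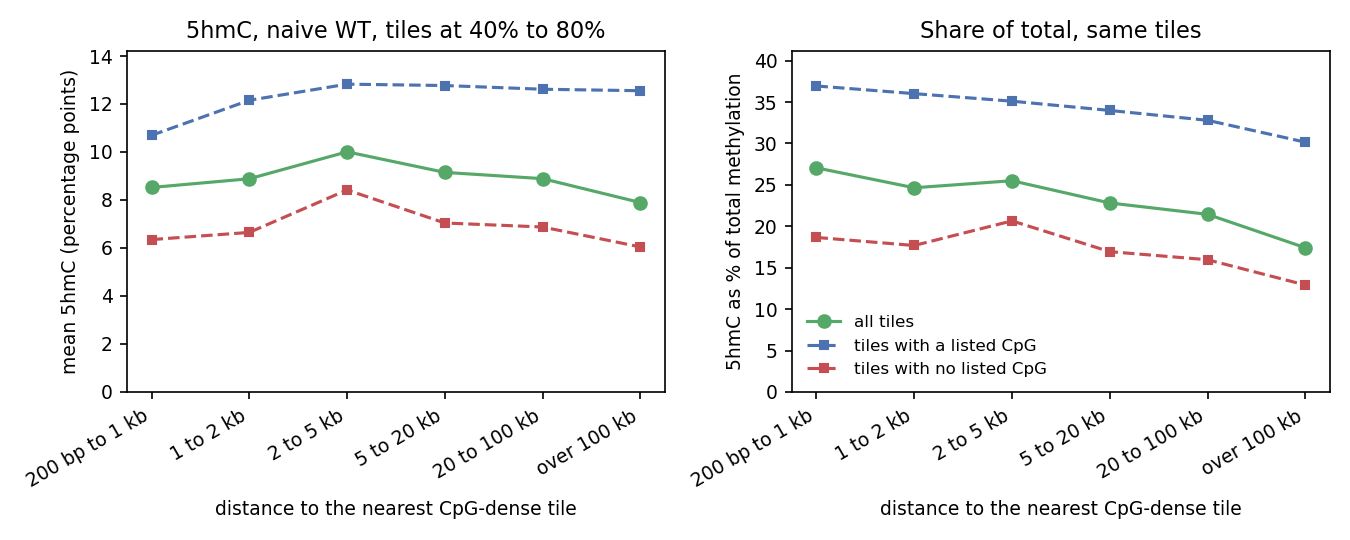
Mean 5hmC of naive WT cells (left, percentage points) and 5hmC as a percentage of total methylation (right) by distance to the nearest tile with 9 or more listed CpGs, for tiles at 40% to 80% in RA-treated cells. Lines give all tiles, tiles with a listed CpG and tiles with none; for all tiles the share is 25.5% at 2 to 5 kb and 17.4% over 100 kb.

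Chromosome X had the least 5hmC of the 20 chromosomes and a level of total methylation above theirs. 5hmC on X averaged 4.94 points over 5621 tiles, against 5.57 to 6.34 points on the 19 autosomes (mean 5.98, SD 0.230). Total methylation on X was 33.8%, against 27.3% to 32.4% on autosomes, and 5mC 28.8% against 21.7% to 26.3%. 5hmC was thus 14.6% of the total on X and 17.95% to 21.4% on the autosomes.

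The difference was present among tiles of like level above 20%, but not below. At 40% to 60% in RA-treated cells, X had 5.82 points over 1616 tiles and the autosomes 7.11 to 8.17 points. At 60% to 80%, X had 7.97 points over 809 tiles and the autosomes 8.26 to 9.64 points. At 20% to 40%, X had 3.90 points over 811 tiles and the autosomes 3.98 to 5.21 points. At 5% to 20%, X had 1.65 points over 399 tiles and lay within the range of the autosomes, 1.24 to 1.88 points. Under 5%, X had 0.219 points over 607 tiles, above the autosomes' -0.0316 to 0.161 points. Listed CpGs were fewer on X, in 26.1% of tiles against 37.2% to 47.0% on autosomes. In tiles at 40% to 80% with no listed CpG, X had 5.30 points and the autosomes 6.01 to 6.77 points, while in tiles with one X had 12.3 points, within the autosomes' 12.04 to 13.2 points. The labels used here do not give the sex of the lines, so the number of X chromosomes per cell cannot be told apart from a difference of the chromosome itself.

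In naive p53-null cells, whose libraries are not shared with WT, X was also the lowest chromosome over all its tiles. There X had 4.18 points and the autosomes 4.65 to 5.47 points. As a share of total methylation, X had 9.46% and the autosomes 11.8% to 14.3%. Split by listing, however, X was not lower in p53-null cells among tiles at 40% to 80% beyond the second decimal. With no listed CpG, X had 4.20 points and the autosomes 4.21 points, and with one X had 13.4 points and the autosomes 12.6 points. The next lowest chromosome was 19 in both genotypes, with 4.65 points in p53-null and 5.57 points in WT cells; in WT cells chromosome 7, at 5.57 points, was its equal.

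**Figure D4:**
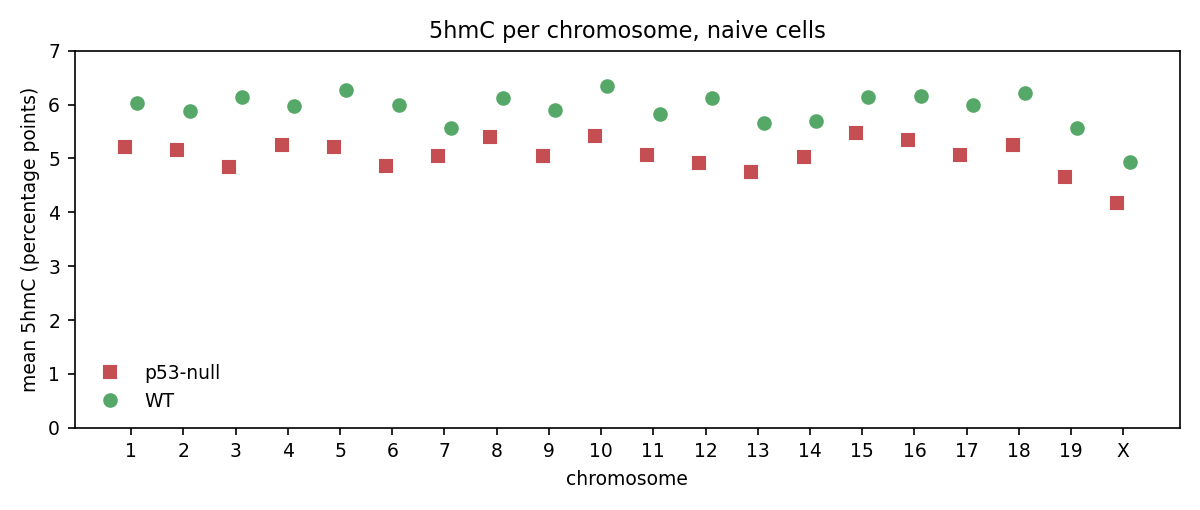
Mean 5hmC (percentage points) over the tiles of each chromosome in naive p53-null cells (squares) and naive WT cells (circles). Each point is 1 pooled value; X is the lowest in both, at 4.18 points in p53-null and 4.94 points in WT cells.

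Along chromosomes, 5hmC averaged slightly more toward the distal end. Mouse chromosomes have their centromere at the start of the coordinates. With each chromosome cut into 10 equal lengths, 5hmC averaged 6.33 points (SD 0.629) in the length farthest from the centromere and 5.58 points (SD 0.832) in the nearest, with total methylation at 30.3% and 32.6%. The farthest was the higher on 15 of 20 chromosomes, and the difference was within the spread over chromosomes. Tiles with a listed CpG made up 44.0% of the farthest length and 37.5% of the nearest. 5hmC was not split by listing here.

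At the scale of 1 Mb, 5hmC was above 0 in 2513 of 2531 windows with at least 20 tiles. The mean over windows was 5.91 points (SD 2.16), and the range from the 5th to the 95th percentile was 2.47 to 9.46 points. The error of a window's mean, from the spread of its tiles, had a median of 1.62 points, beside the SD of 2.16 points between windows. Means of alternate tiles within the same window, which place its tiles in 2 sets, had an r of 0.165 over the 2531 windows. Among the 1829 windows with at least 50 tiles, 1828 were above 0, the SD was 1.77 points and this r was 0.236. Weak likeness of this kind is given as a description of precision.

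The 5 windows of 1 Mb with the highest 5hmC in WT cells had 13.8 to 16.8 points. They lay on chromosome 3 (mm9 147000001 to 148000000), with total methylation at 46.3% and 5mC at 29.5% over 33 tiles, on chromosome 16 (80000001 to 81000000), on chromosome 8 (100000001 to 101000000), on chromosome 17 (95000001 to 96000000) and on chromosome 1 (113000001 to 114000000). The 5 lowest had -3.56 to -1.61 points and lay on chromosome 3 (39000001 to 40000000 and 13000001 to 14000000), chromosome 18 (27000001 to 28000000), chromosome X (38000001 to 39000000) and chromosome 4 (76000001 to 77000000). These windows were chosen for their values in WT cells, and no value within WT checks them.

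The same windows in naive p53-null cells lay, on average, nearer to the mean of all windows. The 5 highest averaged 7.04 points in p53-null and 14.9 points in WT cells, and the 5 lowest 2.16 points in p53-null and -2.59 points in WT cells, where the mean over all windows was 4.87 points in p53-null and 5.91 points in WT cells. In the 253 windows highest in WT cells, p53-null cells had 5.29 points there and WT cells 9.83 points. In the 253 lowest, p53-null cells had 3.89 points and WT cells 2.10 points. The windows were ordered by WT values, so the distance of p53-null cells from WT there is fixed in part by that choice.

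Windows of 100 kb with at least 10 tiles numbered 9300, of which 8754 were above 0. The window highest in naive WT cells was on chromosome 9 (119100001 to 119200000). It had 1.74 points in RA-treated WT, 14.9 points in naive p53-null and 28.4 points in naive WT cells, where total methylation was 49.2% and 5mC 20.8% over 10 tiles. The others of the 5 highest lay on chromosome 7 (37600001 to 37700000), chromosome 1 (186900001 to 187000000) and chromosome 3 (19800001 to 19900000 and 52300001 to 52400000), with 24.2 to 25.2 points in WT cells. The 5 averaged -1.14 points in RA-treated WT, 9.42 points in naive p53-null (5.44 to 14.9 points) and 25.3 points in naive WT cells. They were chosen for their naive WT values, so their distance from the other groups is fixed in part by that choice. Over all 9300 windows the mean was 5.16 points in naive p53-null and 5.92 points in naive WT cells.

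The 5 lowest windows of 100 kb had -9.70 to -8.19 points and lay on chromosome 4 (141900001 to 142000000), chromosome 18 (48300001 to 48400000), chromosome 7 (108700001 to 108800000), chromosome 14 (32700001 to 32800000) and chromosome 5 (120300001 to 120400000). Chosen in the same way, they averaged -0.0567 points in p53-null and -9.12 points in WT cells. The window on chromosome 18 was the only one of the 5 with a value below 0 in p53-null cells, -8.60 points.

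Tiles whose neighbours were high in WT cells were set beside all tiles at 40% to 80% in RA-treated cells, without matching. Of 93193 tiles with at least 2 measured tiles within 1 kb, 1444 had both of the nearest at 20 points or more. Such tiles themselves averaged 6.89 points in naive p53-null and 11.97 points in naive WT cells, with total methylation of 53.8% in p53-null and 43.1% in WT cells. RA-treated WT cells had 2.53 points there. Over all tiles at 40% to 80%, whose total was 55.7% in p53-null and 43.7% in WT cells, the means were 6.82 points in p53-null and 8.31 points in WT cells. RA-treated WT cells had 2.72 points over them. The neighbours were chosen on WT values and can share reads with the tile, so the WT value is fixed in part by that choice. The p53-null value in tiles with high neighbours was about that of all tiles at 40% to 80%.

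The 5 such tiles highest in WT cells all had lower values in p53-null cells, which their choice by WT values fixes in part. The tile on chromosome 18 (77611201 to 77611400) had -19.0 points in p53-null and 63.5 points in WT cells, where total methylation was 76.8% and 5mC 13.3%. The tile on chromosome 5 (124743401 to 124743600) had -4.84 points in p53-null and 62.0 points in WT cells, and that on chromosome 1 (73972001 to 73972200) had -6.58 and 61.8 points in the same order. The other tiles were above 0 in both. On chromosome 4 (119873201 to 119873400) the values were 10.8 points in p53-null and 61.0 points in WT cells, and on chromosome 2 (164965201 to 164965400) 17.1 points in p53-null and 60.2 points in WT cells. They are the highest of the 1444 tiles, chosen for their values in WT cells, and no gene was assigned to them, since the annotation at hand is on another build.

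Over all tiles, naive WT cells had the largest mean 5hmC of the 4 mESC groups, but among tiles with a listed CpG naive p53-null cells had more. Over the 214665 tiles with all 8 values, it was 4.94 points in naive p53-null cells (13.0% of total methylation), against 5.77 points in naive WT cells (19.6%). RA-treated p53-null cells had 2.80 points (7.08%) and RA-treated WT cells 1.95 points (4.57%). Naive p53-null minus naive WT was -0.833 points, below 0 on 20 of 20 chromosomes (-1.18 to -0.439 points). RA-treated WT minus naive WT was -3.82 points, below 0 on 20 of 20 (-4.27 to -3.33 points). Split by listing, the genotype difference in naive cells had opposite signs. This split is tied to the values compared, since at no listed CpG was Hx above total in either genotype. It therefore cannot show that the genotype difference depends on the kind of tile. In the 95601 tiles with a listed CpG, p53-null cells had 6.54 points and WT cells 6.30 points (difference 0.234 points, below 0 on 1 of 20 chromosomes). In the 119064 tiles with none, p53-null cells had 3.65 points and WT cells 5.34 points (difference -1.69 points, below 0 on 20 of 20). RA-treated WT minus naive WT was -2.26 points with a listed CpG and -5.08 points without. Total methylation differed too, at 37.9% in naive p53-null, 29.4% in naive WT, 39.5% in RA-treated p53-null and 42.6% in RA-treated WT cells. The 2 differences share the naive WT values, and neither was tested, since each group is 1 pooled column; completeness of oxidation in each set of oxRRBS libraries cannot be told apart from 5hmC itself.

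Over tiles with and without a listed CpG together, values of naive p53-null cells by level class lay closer together than those of WT cells. In tiles at 5% to 20% in RA-treated cells, 5hmC was 2.14 points in p53-null and 1.66 points in WT cells. At 40% to 60% it was 6.55 points in p53-null and 7.61 points in WT cells, and at 60% to 80% it was 7.13 and 9.13 points in the same order. As a share of total methylation, tiles at 60% to 80% had 11.1% in p53-null and 17.5% in WT cells, beside total methylation of 64.1% and 52.1%. Among tiles at 40% to 80%, p53-null and WT cells both had 12.6 points where a CpG is listed, and where none is p53-null cells had 4.21 points and WT cells 6.38 points. By distance from CpG-dense tiles, p53-null cells had 15.7% of total methylation as 5hmC at 2 to 5 kb and 10.8% over 100 kb among tiles at 40% to 80%, and WT cells 25.5% and 17.4%.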

How the data were processed

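RRBS and oxRRBS of mESC were used. Both tables hold columns that the authors had already pooled, so every group has a single value per position. In the tile table the deposited values are fractions, and the headers of its columns name 5mC with 5hmC, or 5mC alone. They were multiplied into percent. The single-CpG table gives whole percent values, deposited by the authors without depth. The submitters' processing notes name Trim Galore, BSMAP, methylKit and build mm9. Their roles, versions and coverage filters are not given. Neither table holds read counts, so depth and the precision it sets are unknown.

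5hmC was computed as total minus 5mC per tile, values below 0 kept, and lay within 5e-05 points of the authors' own deposited difference column. Each tile counted once in every mean. Level classes had limits at 5, 20, 40, 60 and 80%. The quasi-binomial model foreseen for counts per library was not run. Genes and sequences are not printed, because the tables of genes are on GRCm38.p6 and the files on mm9. A further 4 columns that name no mESC group were not used. The named windows are the 5 highest and 5 lowest among windows of 1 Mb with at least 20 tiles and of 100 kb with at least 10. The named tiles are the 5 highest whose 2 nearest measured tiles lie within 1 kb and have at least 20 points each. Members, classes and named regions were chosen with earlier results of these data known. The averaging code was run on simulated reads of a fixed, assumed depth. That checks the code and not the precision of the real tiles, whose depth is unknown. Coordinates count from 1. Python 3.11.15, numpy 2.4.6, pandas 2.3.3 and matplotlib 3.10.9 were used.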

Additional observations from a re-analysis of the deposited data

Results flagged for a closer look

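The genotype difference in 5hmC had opposite signs in the 2 cell states over the 214665 tiles with all 8 values. In naive cells, p53-null minus WT was -0.833 points, and in RA-treated cells it was 0.850 points, each with the same sign on 20 of 20 chromosomes. In the 119064 tiles with no listed CpG the differences were -1.69 points in naive and 1.47 points in RA-treated cells. In the 95601 tiles with one they were 0.234 and 0.0757 points, so the signs were not opposite there. The listing is not independent of the values compared, so this split draws no line between kinds of tile. The difference between the states was not tested, since each group is 1 pooled column.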

How the results depend on the processing

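Over 8 results and 40 alternatives, 23 values moved by less than the SD over chromosomes, 15 moved by more with the same sign, and 2 changed sign. Mean 5hmC (5.96 points) was 3.402 as a median, 8.21 with values below 0 set to 0, 5.49 in tiles with no listed CpG and 6.62 in tiles with one. 5hmC at 40% to 60% (7.61 points) was 8.65 with classes from naive p53-null total. It was 5.99 in tiles with no listed CpG and 11.2 in tiles with one. With classes from the mean of the tile's own total and 5mC it was 6.87. Those classes use the values that give 5hmC, and by them it was -0.0439 points at 60% to 80% and -6.49 points above 80%. That alternative is counted here but cannot check the result by level. The density difference (9.42 points) was 6.40 as tiles over 2 kb away minus dense tiles, and -2.62 as 1 minus 5 to 8 listed CpGs among tiles at 40% to 80%. Fewer than 20 such tiles have 9 or more. The SD between windows (2.16 points) was 1.77 with at least 50 tiles and 4.04 in windows of 100 kb. X minus autosomes (-1.04 points) was -0.397 in tiles with a listed CpG. Naive p53-null minus WT (-0.833 points) was -1.69 in tiles with no listed CpG and 0.234 in tiles with one. RA-treated minus naive WT (-3.82 points) was -5.08 and -2.26 in the same order. Both changes of sign arose in classes made by listed CpGs, which are not independent of 5hmC, and their cause was not tested. The alternatives by listed CpGs, those on X and on distance, and those that changed sign were chosen after seeing the data. Leaving out libraries in turn was not run, since both tables are pooled. No paired analysis was possible because neither table gives values per library. The unknown depth limits single tiles most.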
